A study of Homo sapiens with 3 samples.

Results

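The mitosis genes are 45 genes chosen by name for their part in chromosome condensation, spindle assembly, the spindle checkpoint and cell separation. All 45 were found, each as 1 row, among the 30923 genes measured by RNA sequencing. The RNA came from QBC-939, a cell line of human bile duct cancer (cholangiocarcinoma). Its cells overexpressed either miR-182-5p or miR-183-5p, or NC, the labels' name for the control. Each of the 3 groups is 1 library, and the genotype is given as WT for all of them. Both microRNA titles carry the ending "mim", which the NC title lacks. The sources used here do not give how the overexpression was done, its dose or its duration. No group has a replicate, so the values describe single libraries, there are no p-values, and the 95% intervals in parentheses cover counting error only.

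A cell enters mitosis when cyclin B bound to the kinase CDK1 becomes active, condenses its chromosomes with the condensin complex, and attaches them to the spindle through kinetochores. The spindle checkpoint holds back the anaphase-promoting complex and its activator CDC20 until every kinetochore is attached, after which separase cuts cohesin and the cell divides. Transcripts of these genes accumulate in G2 and mitosis in cycling cells, so in bulk RNA fewer cells in these phases and less RNA per cell cannot be told apart.

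The microRNA sequences are shown because a site in a member is read against them. In the mature sequences from RefSeq (GRCh38.p14, both on the minus strand of chromosome 7, at chr7:129770447-129770470 and chr7:129774967-129774988), capitals mark the seed, bases 2 to 8.
hsa-miR-182-5p: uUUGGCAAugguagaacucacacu
hsa-miR-183-5p: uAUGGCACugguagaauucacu

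The 7 bases complementary to the miR-182-5p seed, TTGCCAA, were present in the longest annotated 3' UTR of 6 of the 45 members (13.3%), against 15.2% of 10578 measured coding genes. The members were ANLN, AURKA, BIRC5, BUB3, NCAPD2 and SMC4. The miR-183-5p site, GTGCCAT, was present in 4 members (8.89%, against 12.2%), namely BUB3, CCNB1, PLK1 and SPC25. The median 3' UTR was 829 bases in the members and 1318 bases in the measured coding genes. The sites of 4 members follow as DNA with the site in capitals, on the strand of the mRNA (GENCODE release 29, GRCh38); they belong to the members with the lowest and highest ratios among the miR-182-5p site holders, to AURKA, and to the most abundant holder of a miR-183-5p site.
BIRC5, miR-182-5p site, chr17:78225591-78225619, plus strand: agagtaactcacaaTTGCCAAtaaagtct
AURKA, miR-182-5p site, chr20:56370180-56370208, minus strand: tcaaaaccatcaaaTTGCCAAaacaaaga
SMC4, miR-182-5p site, chr3:160434045-160434073, plus strand: gagggtcaggtaacTTGCCAAactaaaaa
CCNB1, miR-183-5p site, chr5:69177668-69177696, plus strand: aaaattggcaccatGTGCCATctgtacat

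The level of each gene was compared between libraries as a ratio of CPM (counts per 1000000 gene counts of a library). With miR-182-5p, the 6 site holders had a median of 0.908 times the NC level and the 39 members without a site 0.884. The site holders' ratios spread from 0.765 in BIRC5 to 1.17 in SMC4. In the miR-183-5p library, the 4 site holders had a median of 0.932 and the other 41 members 0.968.

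Promoters of mitosis genes are known for a shared element, the cell cycle genes homology region, which is bound by the MuvB core of the DREAM complex and of B-MYB and FOXM1 complexes, and for CCAAT boxes bound by NF-Y. RefSeq promoter windows (250 bases before to 50 after a gene start, GRCh38.p14) matched 37 of the 45 members, and the first window listed for each gene was searched on both strands. TTTGAA or TTCGAA was in 27 of 37 member windows (73.0%), against 10.8% of 8912 measured genes and 16.6% of all 27305 genes with a window. Within the last 100 bases before the start, 18 member windows (48.6%) held it, against 2.79% of measured genes. CCAAT was in 26 of 37 (70.3%), against 37.4% of measured genes and 35.7% of all, and at least 2 copies were in 18 (48.6%, against 14.2% and 11.3%). A match is a description of these letters and not of binding. The stretches below run over the 130 bases up to the start and show the arrangement in 3 members with a ratio to NC below 1 and 1 with a ratio above 1 with miR-182-5p; capitals mark TTTGAA, and CCAAT on either strand (ATTGG when on the other strand).
CDC20, chr1:43358851-43358980, plus strand: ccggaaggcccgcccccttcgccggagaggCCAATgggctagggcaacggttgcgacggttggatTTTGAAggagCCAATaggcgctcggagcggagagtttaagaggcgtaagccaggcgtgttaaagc
CCNB2, chr15:59105016-59105145, plus strand: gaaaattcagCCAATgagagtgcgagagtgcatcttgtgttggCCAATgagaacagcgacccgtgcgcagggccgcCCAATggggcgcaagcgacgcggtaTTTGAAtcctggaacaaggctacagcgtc
PLK1, chr16:23678759-23678888, plus strand: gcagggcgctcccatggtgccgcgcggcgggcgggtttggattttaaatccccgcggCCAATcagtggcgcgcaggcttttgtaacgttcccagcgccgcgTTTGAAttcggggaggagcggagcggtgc
MKI67, chr10:128126424-128126553, minus strand: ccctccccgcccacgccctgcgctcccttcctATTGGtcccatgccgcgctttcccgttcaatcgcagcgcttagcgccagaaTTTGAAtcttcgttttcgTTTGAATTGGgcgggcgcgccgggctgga

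The first base of TTTGAA lay 29 bases before the start in both CCNB2 and PLK1, 65 bases before it in CDC20, and at 47 and 29 bases before it in MKI67. In MKI67 the last TTTGAA and the ATTGG after it share a base. The 27 members with TTTGAA or TTCGAA had a median ratio to NC of 0.896 with miR-182-5p, against 0.881 in the 10 without. With miR-183-5p these medians were 0.953 and 0.968.

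The libraries held 61709874 gene counts with miR-182-5p, 67427313 with miR-183-5p and 64516706 with NC. Of these, the members took 306829 (0.497%, exact interval 0.495% to 0.499%) with miR-182-5p, 361086 (0.536%, 0.534% to 0.537%) with miR-183-5p and 348589 (0.540%, 0.539% to 0.542%) with NC. The share of mitochondrially encoded genes was 16.7% with miR-182-5p, 16.1% with miR-183-5p and 13.5% with NC. Of 8 biliary epithelial markers all had a mean FPKM (fragments scaled to transcript length and library size, the deposited level per length) of at least 1, and their summed CPM was 5433 with miR-182-5p, 5862 with miR-183-5p and 6512 with NC. The biliary keratin KRT7 was the lowest of them, at an FPKM of 1.29, 1.46 and 1.03. KRT8 (2772 CPM with miR-182-5p and 3423 with NC) and KRT18 (1623 and 2099) made up most of the biliary sum. KRT19 was also lower than in NC, at 211 and 229 CPM. The other biliary markers were higher with miR-182-5p than with NC: CFTR (126 and 89.0 CPM), EPCAM (513 and 499), CDH1 (52.6 and 48.0), SOX9 (128 and 120) and KRT7 (6.17 and 4.99). The fibroblast markers, 1 of 4 found with a mean FPKM of at least 1, summed to 23.9, 16.2 and 14.9 CPM, and the endothelial ones, with 0 of 2, to 2.22, 1.68 and 1.24 CPM. Immune markers, 2 of 3, summed to 1516, 1452 and 1600.0 CPM, nearly all from LYZ, and hepatocyte markers, 2 of 5, to 1404, 1192 and 1045 CPM, mostly from SERPINA1. The leukocyte antigen gene PTPRC had 9, 0 and 0 counts and the hepatocyte gene ALB 0, 9 and 5; the part of such differences in the members' values was not tested.

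Every member was above the filter used below, a mean FPKM over the 3 libraries of at least 1, which 12675 genes passed. The members' FPKM ran from 2.40 to 60.8 with miR-182-5p, from 2.44 to 68.4 with miR-183-5p and from 2.31 to 75.5 with NC, with medians of 15.3, 16.6 and 18.2. The APC/C activator CDC20, cyclin B1 and the spindle factor TPX2 were at the top, and SPC24 and KNL1 at the bottom. The median of the members' mean FPKM was 16.7, against 5.30 for all genes that passed.

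**Figure D1:**
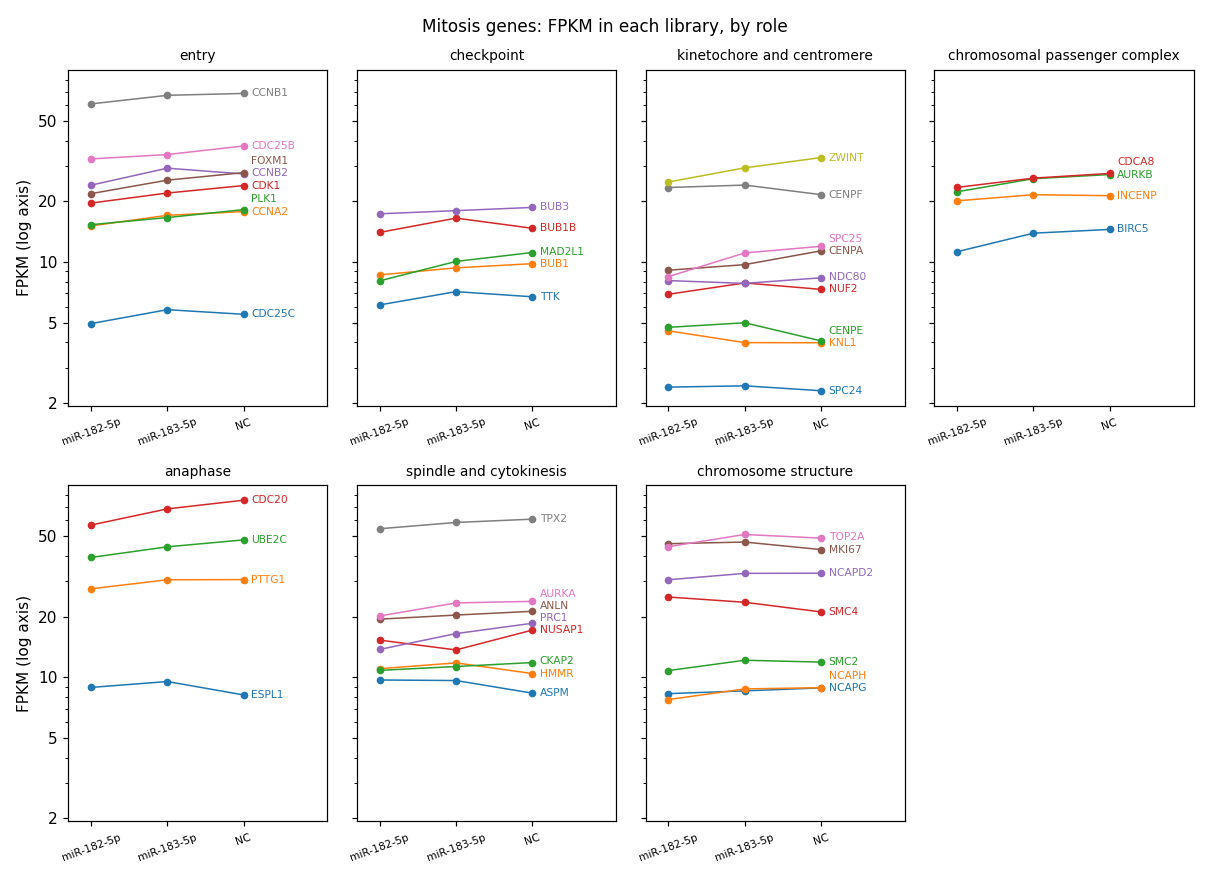
FPKM (log axis) of each of the 45 mitosis genes in each library (miR-182-5p, miR-183-5p, NC from left to right), 1 panel per role, 1 line per gene; each point is 1 library. In the NC library levels run from 2.31 for SPC24, a kinetochore gene, to 75.5 for CDC20, an anaphase gene.

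Setting miR-182-5p against NC addressed how mitosis genes stand when miR-182-5p is overexpressed. Of the 45 members, 36 had a CPM ratio to NC below 1 (80.0%), against 52.5% of all measured genes and 69.3% of those with a mean FPKM of 10 to 50. At this scaling 12 were at least 1.2-fold lower (26.7%), a fold reached downward by 20.5% of all measured genes. No member was at least 1.2-fold higher, against 22.1% of all measured genes. The median ratio was 0.887 (a log2 difference of -0.17), against 0.987 (-0.02) for all measured genes. With edgeR TMM scaling in place of total counts, 19 members were 1.2-fold lower (42.2%, against 27.0% of all genes), 0 members were higher (against 18.5%), and with mitochondrially encoded genes left out of the total, 8 were lower (17.8%, against 15.4% of all genes) and 1 was higher (against 26.4%).

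Genes at the level of most members were lower in general with miR-182-5p. Of the 29 members with a mean FPKM of 10 to 50, 10 were at least 1.2-fold lower than NC (34.5%), 0 were higher and the median ratio was 0.868. Of all 3141 genes in this range, 29.4% were lower, 9.61% were higher and the median was 0.910. At this level the miR-183-5p library had 1 member lower than NC, against 8.02% of genes, and 0 higher, against 2.42%. Between the microRNA libraries, 3 members of this level were lower with miR-182-5p, against 8.31% of genes, and 0 higher, against 4.58%. The 13 members under a mean FPKM of 10 had a median ratio to NC of 0.932 with miR-182-5p, against 1.03 for the 9016 genes there. Of these 13, 1 was at least 1.2-fold lower (7.69%, against 15.8% of the genes there) and 0 were higher (against 27.2%).

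The 12 members past the fold were SPC25, MAD2L1, PRC1, CDC20, ZWINT, BIRC5, FOXM1, CENPA, UBE2C, CDK1, AURKB and PLK1. At the threshold (a ratio of 0.833), PLK1 lay just inside at 0.831, while AURKA at 0.835, CCNA2 at 0.838 and CDCA8 at 0.841 lay just outside. The counting interval was below 1 for 35 members (background 39.6%) and above 1 for 7 (background 35.1%), and included 1 for NDC80, SPC24 and HMMR. Intervals narrow as counts rise, so genes of a similar level are the closer background. At a mean FPKM of 10 to 50, intervals were below 1 for 25 of 29 members and 1951 of 3141 genes. They were above 1 for 3 members and 778 genes there.

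In the miR-183-5p library the members were closer to NC. The number with a ratio below 1 was 30 (66.7%), against 57.2% of all measured genes and 69.3% of those with a mean FPKM of 10 to 50. The spindle protein gene NUSAP1 was at least 1.2-fold lower (background 10.7%) and the kinetochore motor gene CENPE at least 1.2-fold higher (background 10.5%). The median ratio was 0.953 (-0.07 on the log2 scale), against 0.977 (-0.03) for all measured genes and 0.952 for the 3141 genes with a mean FPKM of 10 to 50. Intervals were below 1 for 23 members (background 37.4%) and above 1 for 10 (background 24.5%). At a mean FPKM of 10 to 50, they were below 1 for 17 of 29 members and 1723 of 3141 genes. They were above 1 for 7 members and 627 genes there. Both comparisons use the same NC library, so their values are set side by side and are not independent.

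Between the microRNA libraries, 40 members (88.9%) had a lower level in miR-182-5p than in miR-183-5p, against 47.0% of all measured genes and 61.7% of those with a mean FPKM of 10 to 50. The median ratio was 0.907, against 1.01 for all measured genes. At least 1.2-fold lower were SPC25 at 0.764 (0.708 to 0.825), MAD2L1 at 0.802 (0.767 to 0.840), BIRC5 at 0.810 (0.774 to 0.849), CCNB2 at 0.824 (0.794 to 0.855) and CDC20 at 0.832 (0.809 to 0.856). These are 5 members (11.1%), against 9.07% of all genes, and 0 were higher, against 16.2%. With edgeR TMM scaling 14 members were lower (31.1%, against 16.0% of all genes) and 0 higher (against 11.5%). Intervals were below 1 for 36 members (background 30.4%) and above 1 for SMC4, KNL1 and NUSAP1 (background 34.9%). At a mean FPKM of 10 to 50, they were below 1 for 25 of 29 members and 1512 of 3141 genes. They were above 1 for 2 members and 861 genes there.

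**Figure D2:**
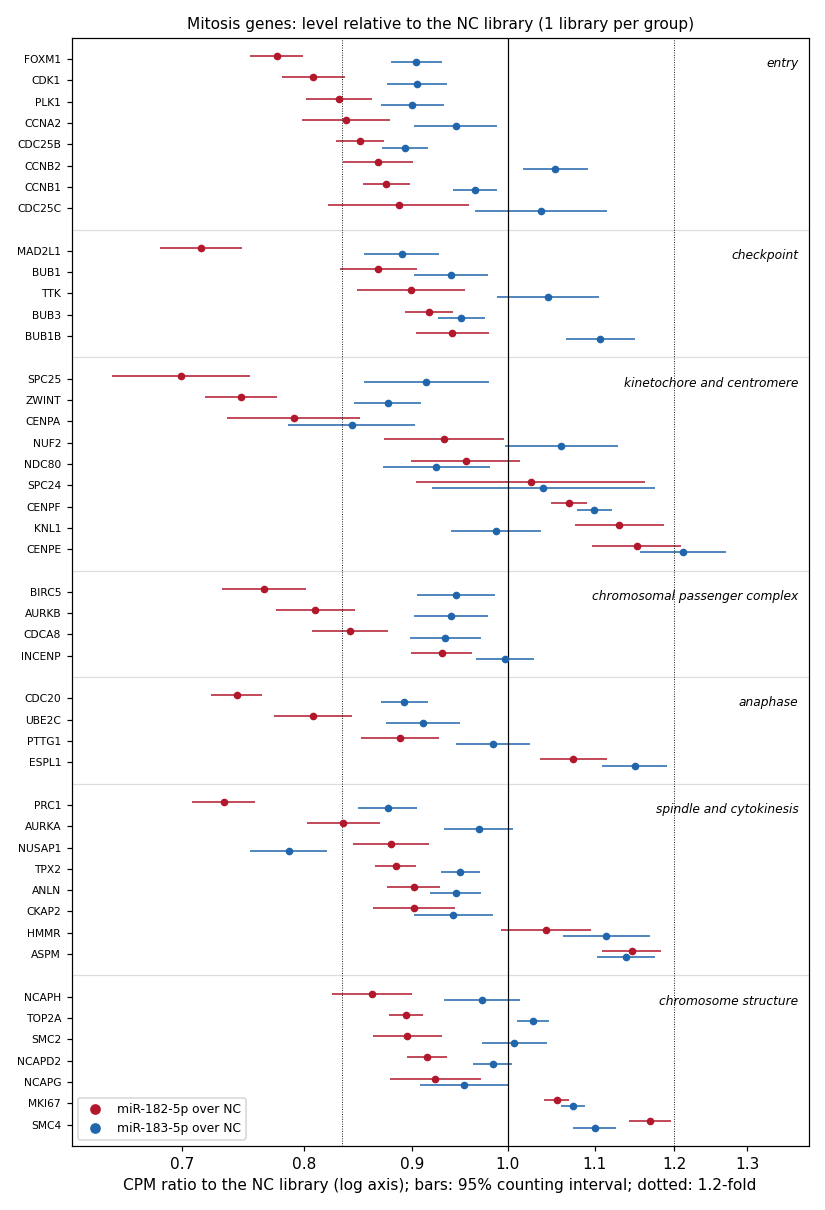
CPM ratio to the NC library (log axis) of each mitosis gene in the miR-182-5p library (red) and the miR-183-5p library (blue), grouped by role; bars are 95% counting intervals and dotted lines mark 1.2-fold. In the miR-182-5p library 12 genes lie left of the lower dotted line and none right of the upper; NUSAP1 and CENPE are the blue points outside these lines.

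Genes of mitotic entry were lower with miR-182-5p throughout: all 8 had intervals below 1, 3 passed 1.2-fold (37.5%), and the median ratio was 0.844. Of all measured genes, 39.6% had intervals below 1 and 20.5% were at least 1.2-fold lower. At a mean FPKM of 10 to 50, 1951 of 3141 genes had such intervals and 29.4% were lower by that fold. FOXM1 (ENSG00000111206, chromosome 12, 2857680 to 2877174), the transcription factor of G2 and M phase genes, had 21.8 FPKM with miR-182-5p, 25.5 with miR-183-5p and 27.8 with NC. Its ratio to NC was 0.776 (0.754 to 0.799) for miR-182-5p and 0.905 (0.880 to 0.930) for miR-183-5p. The most abundant entry gene, cyclin B1 (CCNB1), stood at 60.8 FPKM with miR-182-5p, 67.1 with miR-183-5p and 68.5 with NC. Its ratios were 0.875 (0.853 to 0.898) and 0.965 (0.941 to 0.989). CDK1, the mitotic kinase itself, was at 0.808 and 0.905 times NC, and PLK1, the kinase that promotes entry and spindle assembly, at 0.831 and 0.901. Cyclin A2 (CCNA2) was at 0.838 and 0.944.

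The CDC25 phosphatases, which remove inhibitory phosphates from CDK1, and cyclin B2 divided the entry genes in the miR-183-5p library. CDC25B had 32.5 FPKM with miR-182-5p, 34.1 with miR-183-5p and 37.6 with NC, and ratios of 0.851 (0.829 to 0.873) and 0.894 (0.871 to 0.916). CDC25C, at 4.96, 5.81 and 5.51 FPKM in the same order, had ratios of 0.887 (0.821 to 0.958) and 1.04 (0.965 to 1.12). CCNB2 had 24.1 FPKM with miR-182-5p, 29.2 with miR-183-5p and 27.3 with NC, with ratios of 0.868 (0.835 to 0.901) and 1.05 (1.02 to 1.09). Thus cyclin B2 was lowest in the miR-182-5p library and highest in the miR-183-5p library, while cyclin B1 was highest in NC.

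All 5 spindle checkpoint genes had intervals below 1 in the miR-182-5p library (39.6% of all measured genes did), and MAD2L1 passed 1.2-fold (20.5%). At a mean FPKM of 10 to 50, 1951 of 3141 genes had such intervals, and at 1 to 10, 2682 of 9016 did. MAD2L1 (ENSG00000164109, chromosome 4, 120055623 to 120066858) encodes MAD2, which binds and restrains CDC20. It had 8.08 FPKM with miR-182-5p, 10.1 with miR-183-5p and 11.2 with NC, and ratios of 0.714 (0.683 to 0.747) and 0.890 (0.854 to 0.927). BUB1B, which encodes the checkpoint protein BUBR1, had 14.04, 16.5 and 14.7 FPKM in the same order of libraries. Its ratio was 0.941 (0.904 to 0.979) with miR-182-5p and 1.11 (1.07 to 1.15) with miR-183-5p. BUB3, the most abundant of the 5, stood at 17.4, 18.0 and 18.7 FPKM, with ratios of 0.917 and 0.950. The kinase BUB1 was at 0.867 and 0.940, and the kinase TTK at 0.899 and 1.04.

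Kinetochore and centromere genes spread the most of any role in the miR-182-5p library, with ratios of 0.699 to 1.15. Of these 9 genes, 3 were at least 1.2-fold lower (20.5% of all measured genes were) and 3 had intervals above 1 (35.1%). SPC25 (ENSG00000152253, chromosome 2, 168834132 to 168913371), a subunit of the microtubule-binding NDC80 complex, had the lowest ratio of all 45. It had 8.48 FPKM with miR-182-5p, 11.1 with miR-183-5p and 12.0 with NC, and ratios of 0.699 (0.648 to 0.754) and 0.915 (0.854 to 0.980). The other subunits of this complex did not share that ratio: NDC80 was at 0.955 and 0.924, NUF2 at 0.932 and 1.06, and SPC24 at 1.02 and 1.04 times NC. SPC24 was the least covered of the 45, with 500 counts with miR-182-5p, 554 with miR-183-5p and 510 with NC. SPC25 had 1135, 1623 and 1698 counts, and NOSTRIN on the opposite strand across it had 2364, 1960 and 1655. Whether counting used strand is not given in the sources used here, so reads of members and of genes opposite them cannot be told apart.

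The kinetochore linker ZWINT was the most abundant of the kinetochore genes, at 24.9 FPKM with miR-182-5p, 29.3 with miR-183-5p and 33.0 with NC, and had ratios of 0.746 (0.718 to 0.776) and 0.877 (0.845 to 0.909). CENPA, the centromeric histone H3 variant, had 9.12, 9.72 and 11.4 FPKM and ratios of 0.791 (0.735 to 0.850) and 0.843 (0.786 to 0.904). Its span overlaps SLC35F6 on the same strand, and the 2 genes counted together were at 0.827 and 0.967. CENPE (ENSG00000138778, chromosome 4, 103105349 to 103198445), a kinesin that moves chromosomes to the spindle equator, stood the other way. It had 4.75 FPKM with miR-182-5p, 5.01 with miR-183-5p and 4.07 with NC, and ratios of 1.15 (1.097 to 1.21) and 1.21 (1.16 to 1.27). CENPF, a large protein of the outer kinetochore, was at 1.07 and 1.099, and KNL1, the scaffold on which the checkpoint proteins assemble, at 1.13 and 0.987.

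The chromosomal passenger complex, in which INCENP, survivin (BIRC5) and borealin (CDCA8) guide the kinase Aurora B (AURKB), had all 4 members with intervals below 1 in the miR-182-5p library, and a median ratio of 0.825. Of all measured genes, 39.6% had such intervals. Among genes with a mean FPKM of 10 to 50, the range of all 4, 1951 of 3141 did. BIRC5 had 11.3 FPKM with miR-182-5p, 13.9 with miR-183-5p and 14.5 with NC, with ratios of 0.765 (0.731 to 0.801) and 0.944 (0.905 to 0.986). AURKB was at 0.810 and 0.940. CDCA8, the most abundant, had 23.5, 26.1 and 27.5 FPKM and ratios of 0.841 (0.807 to 0.876) and 0.934 (0.898 to 0.971). The scaffold INCENP, at 20.1, 21.6 and 21.3 FPKM, was nearest to NC, at 0.930 (0.899 to 0.961) and 0.997 (0.965 to 1.03).

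Of the anaphase genes, 3 of 4 had intervals below 1 with miR-182-5p, against 39.6% of all measured genes. At a mean FPKM of 10 to 50, 1951 of 3141 genes had such intervals. The most abundant anaphase gene in NC had the lowest ratio of the 4. CDC20 (ENSG00000117399, chromosome 1, 43358981 to 43363203) had 56.8 FPKM with miR-182-5p, 68.4 with miR-183-5p and 75.5 with NC. Its ratios were 0.743 (0.722 to 0.764) and 0.893 (0.870 to 0.916). UBE2C, the ubiquitin-conjugating enzyme of the anaphase-promoting complex, was at 0.808 and 0.911, and securin (PTTG1), the inhibitor of separase, at 0.888 and 0.984. Separase itself (ESPL1) was above NC in both microRNA libraries, with 8.91 FPKM for miR-182-5p, 9.54 for miR-183-5p and 8.18 for NC. Its ratios were 1.07 (1.04 to 1.11) and 1.15 (1.11 to 1.19).

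Among spindle and cytokinesis genes, 6 of 8 had intervals below 1 with miR-182-5p and the median ratio was 0.893. Such intervals were found for 39.6% of all measured genes and 1951 of 3141 genes with a mean FPKM of 10 to 50. TPX2, which activates Aurora A on spindle microtubules, had 54.5 FPKM with miR-182-5p, 58.5 with miR-183-5p and 60.8 with NC, at 0.884 (0.865 to 0.904) and 0.949 (0.929 to 0.970) times NC. Aurora A (AURKA) was at 0.835 and 0.968, the cleavage furrow protein anillin (ANLN) at 0.902 and 0.944, and the spindle protein CKAP2 at 0.902 and 0.942. ASPM, which organises spindle poles, had 9.70, 9.64 and 8.35 FPKM and ratios of 1.15 (1.11 to 1.18) and 1.14 (1.102 to 1.17). HMMR, a spindle-associated hyaluronan receptor, was at 1.04 and 1.11.

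Values for PRC1 and NUSAP1 depend on how overlapping genes were counted. PRC1, which bundles microtubules of the central spindle, had 13.8 FPKM with miR-182-5p, 16.5 with miR-183-5p and 18.5 with NC, and ratios of 0.732 (0.708 to 0.758) and 0.876 (0.849 to 0.905). AC068831 covers it on the same strand and had 9090, 8825 and 8211 counts in these libraries, and the genes counted together were at 0.948 (0.927 to 0.970) and 0.954 (0.933 to 0.975). NUSAP1, which links spindle microtubules to chromosomes, had 15.3, 13.7 and 17.1 FPKM and ratios of 0.880 (0.843 to 0.918) and 0.786 (0.754 to 0.820). A gene named AC087721 (ENSG00000285920) overlaps it on the same strand and had 0 counts with miR-182-5p, 876 with miR-183-5p and 70 with NC. Counted with its same-strand neighbours, NUSAP1 was at 0.868 (0.832 to 0.905) and 0.948 (0.911 to 0.987), and so no longer past 1.2-fold in the miR-183-5p library.

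Of the 7 genes of chromosome structure, 0 passed 1.2-fold against NC in either microRNA library with total counts as the scale, and median ratios were 0.915 and 1.01. Among all measured genes 20.5% were lower and 22.1% higher by that fold with miR-182-5p, and 10.7% and 10.5% with miR-183-5p. With miR-182-5p, edgeR TMM scaling put NCAPH past 1.2-fold lower, and leaving out mitochondrially encoded genes put SMC4 past 1.2-fold higher. Topoisomerase II alpha (TOP2A), which untangles sister DNA, had 44.4 FPKM with miR-182-5p, 51.0 with miR-183-5p and 49.0 with NC. Its ratios were 0.895 (0.878 to 0.912) and 1.03 (1.01 to 1.05). The condensin subunits SMC2 and SMC4 form the ATPase pair of the complex and stood apart: SMC2 was at 0.896 (0.863 to 0.930) and 1.01, and SMC4 at 1.17 (1.14 to 1.196) and 1.0996 (1.07 to 1.13). SMC4 (ENSG00000113810, chromosome 3, 160399274 to 160434954) had 25.01 FPKM with miR-182-5p, 23.6 with miR-183-5p and 21.1 with NC, the highest ratio to NC of the 45 in the miR-182-5p library. IFT80, on the opposite strand and overlapping SMC4 by 271 bases, had 3758, 3466 and 3077 counts. TRIM59, also on the opposite strand, overlaps SMC4 by 2510 bases and had 1719, 1577 and 1563 counts. The non-SMC condensin subunits were lower with miR-182-5p, with NCAPH at 7.76, 8.76 and 8.89 FPKM and ratios of 0.861 (0.825 to 0.900) and 0.972. NCAPG, at 8.30, 8.57 and 8.87 FPKM, had ratios of 0.924 (0.879 to 0.971) and 0.953, and NCAPD2 of 0.915 and 0.983. MKI67, the Ki-67 antigen that coats mitotic chromosomes, had 46.0 FPKM with miR-182-5p, 46.8 with miR-183-5p and 43.0 with NC, slightly higher in both microRNA libraries at 1.05 (1.04 to 1.07) and 1.07 (1.06 to 1.09).

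The members with ratios above 1 with miR-182-5p were mostly those with long transcripts, a pattern noticed after the values were seen. Lengths are of the longest annotated coding transcript, which may differ from the one expressed. Of the 7 members over 6 kb (MKI67, ASPM, CENPF, KNL1, CENPE, BUB3 and ESPL1), 6 had a ratio above 1, with a median of 1.07; of 1829 measured coding genes of this length 62.1% did, with a median of 1.05. Of the 9 members under 2 kb (UBE2C, PTTG1, AURKB, SPC25, CENPA, CDC20, ZWINT, CDK1 and NUF2), 0 had a ratio above 1 and 7 were at least 1.2-fold lower (77.8%), with a median of 0.808. Of 2295 measured coding genes under 2 kb, 27.7% were above 1 and 39.0% at least 1.2-fold lower, with a median of 0.879. Members of 2 to 3 kb, 3 to 4 kb and 4 to 6 kb had medians of 0.865, 0.899 and 0.899, against 0.938, 0.964 and 0.997 for coding genes of these lengths.

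In the miR-183-5p library, members over 6 kb had a median ratio of 1.099 and those under 2 kb of 0.911, against 1.01 and 0.929 for coding genes of these lengths. Spearman's rho between length and log2 ratio to NC was 0.61 over the 45 members and 0.29 over 10587 coding genes for miR-182-5p, and 0.50 and 0.22 (10585 genes) for miR-183-5p. Genes are not independent replicates, and all points of a comparison share the same 2 libraries. For mean FPKM, rho with the miR-182-5p log2 ratio was -0.32 over members and -0.30 over coding genes, and for transcript GC content -0.38 and 0.03. The part that transcript length, GC content or RNA quality has in the members' ratios was not tested.

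**Figure D3:**
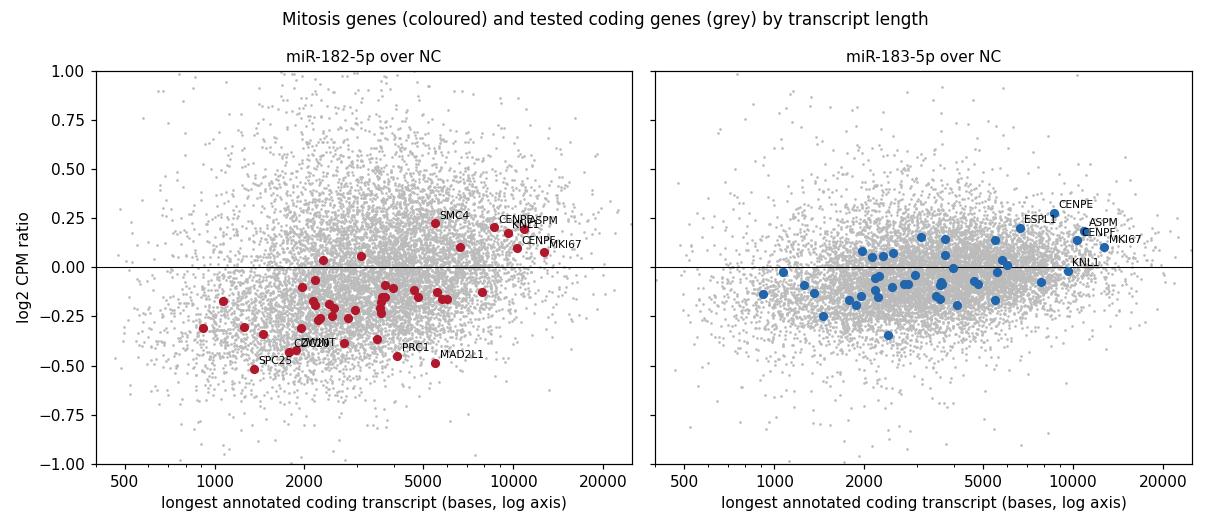
Log2 CPM ratio to NC against the length of the longest annotated coding transcript (log axis) for the mitosis genes (coloured) and measured coding genes (grey; those beyond 1 in either direction are not drawn), with miR-182-5p on the left and miR-183-5p on the right. On the left the 9 mitosis genes under 2 kb all lie below 0 and 6 of the 7 over 6 kb lie above it.

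The pathways around the members were described with 9 lists of other cell division genes that hold none of the 45. The background for their miR-182-5p counts is 20.5% of all measured genes at least 1.2-fold lower and 22.1% higher. Among genes with a mean FPKM of 10 to 50 these shares were 29.4% and 9.61%. DNA replication genes were the lowest list in the miR-182-5p library: 15 of 26 were at least 1.2-fold lower (57.7%), 0 were higher, all 26 had intervals below 1, and the median ratio was 0.816. They ran from GINS2, a subunit of the replicative helicase, at 9.49 FPKM with miR-182-5p, 11.9 with miR-183-5p and 14.1 with NC (ratios 0.662 and 0.832), to the polymerase gene POLA1 at 0.914 and 0.995. In the miR-183-5p library 1 of the 26 was 1.2-fold lower (3.85%, against 10.7% of all measured genes) and the median was 0.938.

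Other mitosis genes outside the members were mixed. Of 12 mitotic kinesins, 1 was 1.2-fold lower in the miR-182-5p library (8.33%, against 20.5% of all measured genes). It was the spindle-bipolarity motor KIF11 at 0.794 (0.766 to 0.824). The median of the kinesins was 0.937, and KIF18B was highest at 1.17. Of 14 further spindle and cytokinesis genes 2 were lower (14.3%) and 1 higher (7.14%, against 22.1% of all measured genes). These 14 ran from KNSTRN at 0.689 to the cytokinesis kinase CIT at 1.22, with a median of 0.917. Of 18 further kinetochore and checkpoint genes found among 19 listed, 7 were lower (38.9%) and 0 higher. These 18 ran from CENPN at 0.665 to CENPI at 1.15, with a median of 0.882. In the anaphase-promoting complex 5 of 16 measured genes were lower (31.25%, against 29.4% of genes with a mean FPKM of 10 to 50). These 16 ran from ANAPC13 at 0.740 to ANAPC4 at 1.14, with a median of 0.889. Condensin II and cohesin genes had 2 of 13 lower (15.4%). These 13 ran from the cohesin stabiliser CDCA5 (sororin) at 0.726 to the cohesin loader NIPBL at 1.08, with a median of 0.915.

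Regulators of entry ranged widest, with 6 of 15 lower (40.0%) and 2 higher (13.3%) with miR-182-5p and a median of 0.878. The shares of all measured genes were 20.5% and 22.1%. The CDK-binding protein CKS2 had 91.7 FPKM with miR-182-5p, 112 with miR-183-5p and 139.8 with NC (ratios 0.647 and 0.792). WEE1, the kinase that inhibits CDK1, was at 1.203 and 1.15, and LIN37, a subunit of the MuvB core, at 1.32 and 1.08. Among G1 cyclins, kinases and E2F factors 4 of 13 were lower (30.8%) and 1 higher (7.69%). These 13 ran from CDK4 at 0.696 to the pocket protein RBL2 at 1.23, with a median of 0.925. Of 6 measured CDK inhibitors 2 were lower (33.3%), CDKN2A at 0.784 and CDKN2D at 0.809. The highest was CDKN1A (p21) at 1.11 (1.03 to 1.19), and the median of the 6 was 0.903. In the miR-183-5p library the medians of these 8 lists lay between 0.902 and 0.995. CENPN, KIF18B, NIPBL, CKS2, WEE1, LIN37, CDK4, RBL2 and POLA1 overlap another gene on the same strand.

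**Figure D4:**
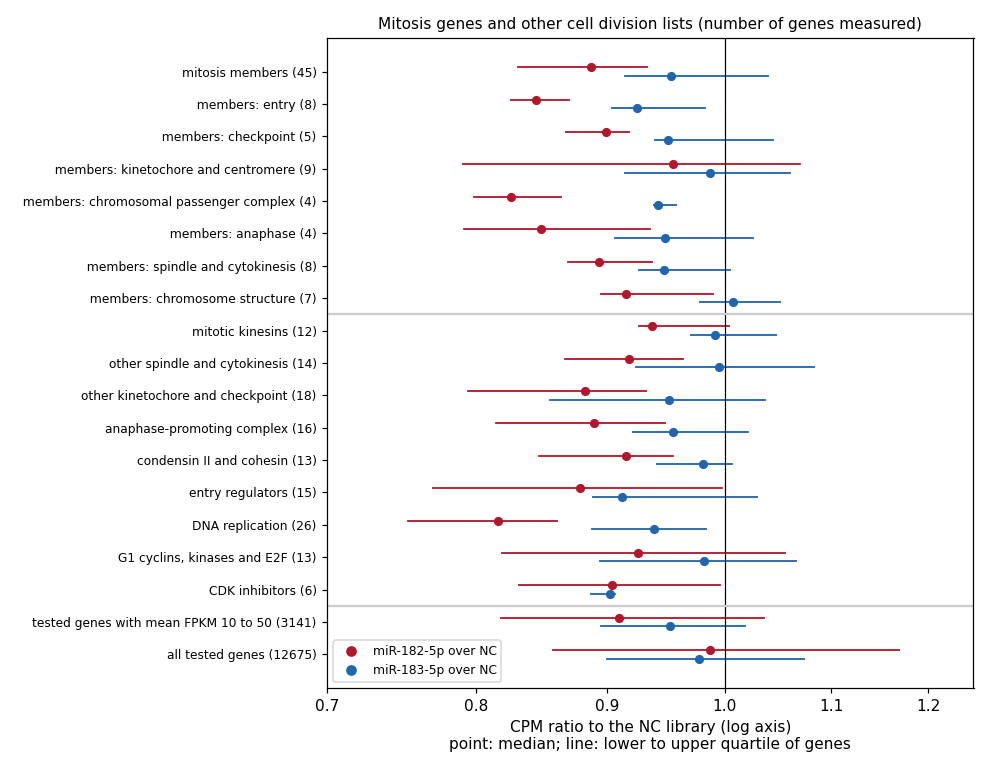
Median CPM ratio to NC (points, log axis) and the lower to upper quartile of genes (lines) for all mitosis members, their 7 roles, the 9 other cell division lists, genes with a mean FPKM of 10 to 50 and all measured genes, for miR-182-5p (red, upper) and miR-183-5p (blue, lower). The miR-182-5p median of all 45 members, 0.887, lies between that of DNA replication genes, 0.816, and that of genes with a mean FPKM of 10 to 50, 0.910. The 29 members within that range, not drawn apart, had a median of 0.868.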

How the data were processed

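RNA sequencing was done on 3 libraries of total RNA extracted with Trizol, per the labels' protocols. The submitters' processing notes name cutadapt 1.9 and FastQC, and the build GRCm38, a mouse assembly, although the gene identifiers are human and 99.9% of those in GENCODE release 29 (GRCh38) have overlapping spans there. The sources used here do not give the aligner, the counting program or strand handling. Gene counts are whole numbers as deposited, and FPKM values were computed by the authors, per the file headers. CPM is the count per 1000000 gene counts of a library. Ratios are CPM ratios with exact (Clopper-Pearson) 95% intervals conditional on the sum of both counts, computed in Python 3.11.15 with scipy 1.17.1. PCR copies are not independent molecules, so intervals cover counting error only.

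Genes with a mean FPKM of at least 1 over the 3 libraries were compared. With 1 library per group no test applies, and a difference was counted at 1.2-fold. All 45 members are named, with values in every library for the most abundant member of each role and those with its highest and lowest ratios to NC; of each other list, the genes with its highest and lowest miR-182-5p ratio are named. WEE1, CDKN2D and further counts of overlapping genes were added after their values were seen. The members, lists and thresholds were chosen with earlier results of these data known. Alternatives were edgeR 4.0.16 TMM and DESeq2 1.42.0 median-ratio scaling, a total without mitochondrially encoded genes, FPKM with a pseudocount of 1 or 0.1, other filters and folds, and overlapping genes left out or summed. Same-strand overlap was found from the deposited spans for 9 members; 11 more overlap genes on the opposite strand alone. The ratio calculation was tested on simulated data. Some overlapping genes and sites are not reported here.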

Additional observations from a re-analysis of the deposited data

How the results depend on the processing

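Of 93 recalculated values, 70 stayed within 1.5 times a reported count or, for a median log2 ratio, within the median half-width of the members' counting intervals. The median of the members was below 0 on the log2 scale in each of the 3 comparisons under every alternative run. The median of all genes took either sign. It was -0.08 (miR-182-5p against NC), -0.02 (miR-183-5p against NC) and -0.05 (between the microRNA libraries) with edgeR TMM scaling. With mitochondrially encoded genes left out of the total it was 0.04, 0.01 and 0.03. For miR-182-5p against NC, edgeR TMM scaling gave 19 members at least 1.2-fold lower and a median of -0.23, and DESeq2 scaling 19 and -0.23, against 12 and -0.17 reported. A change of library scaling shifts all genes alike; with a mean FPKM of at least 5 the members' median lay -0.08 from that of all genes, against -0.15 reported. Leaving mitochondrially encoded genes out of the total gave 1 member higher, against 0. For miR-182-5p against miR-183-5p, edgeR TMM scaling gave 14 lower and a median of -0.21 and DESeq2 scaling 14 and -0.21, against 5 and -0.14. At 1.1-fold, 29 members were lower (34.9% of all genes were) and 4 higher (32.5%) for miR-182-5p against NC, 10 lower (28.0%) and 5 higher (20.6%) for miR-183-5p against NC, and 23 lower (23.3%) and 2 higher (29.9%) between the microRNA libraries. At 1.5-fold, 0 were lower in all 3 comparisons (2.79%, 1.96% and 1.46% of all genes were) and 0 higher for miR-183-5p against NC (3.03%). The 1 higher member for miR-183-5p, CENPE, was 0 with FPKM plus 1 and with a mean FPKM of at least 5. The 1 lower member, NUSAP1, was 0 without same-strand overlaps and, in a setting chosen after seeing the data, 0 when members were summed with them; 11 members were then lower for miR-182-5p against NC. The causes of these shifts were not tested, apart from fewer genes under a filter.

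No paired analysis was possible because each group has 1 library, and leaving out replicates was not run for the same reason. Counting error is small at these depths (the least covered member had 500 counts), and variation between cultures was not measured.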
